A study of Danio rerio with 17 samples.

Results

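The egg coat genes described here are zp2.6, zp3a.1, zp3.1 and zpax1, measured in liver samples of zebrafish that differed in sex and in dietary carbohydrate. They comprise every probe set of the array whose single gene symbol is one of these 4, which gave 5 probe sets of 15502 tested and 4 of 8793 named genes. Zp3.1 has 2 probe sets, called A and B below, and each of the other genes has 1. The study crossed sex with a diet of 0% or 25% carbohydrate and hybridised total liver RNA of 17 fish to Affymetrix zebrafish arrays, with 1 array per fish. Without carbohydrate there were 5 females (fish 7, 8, 10, 25 and 27) and 4 males (fish 11, 26, 30 and 66). With 25% carbohydrate there were 5 females (fish 3, 20, 24, 49 and 51) and 3 males (fish 52, 53 and 54). The labels give no strain, age, feeding time or genetic change for any group. In the design text the 2 male group sizes are swapped, and the labels of the single samples were followed.

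The zona pellucida domain is a protein module through which secreted glycoproteins join into filaments, and these filaments build the coat around the vertebrate egg. In fish the coat is called the chorion, and it is made of several families of such proteins, among them the ZP2, ZP3 and ZPAX types. In zebrafish the genes are known mainly from the growing oocyte, whereas in some other teleosts, such as medaka, the liver also makes coat proteins under oestrogen and releases them into the blood.

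The log2 medians of the arrays ran from 3.52 to 3.61. Within a group the arrays had pairwise correlations of 0.925 to 0.981. The liver label was checked on 14 measured hepatocyte genes, whose mean per group lay between 11.70 and 11.97. Fabp10a, the liver fatty acid binding protein, averaged between 13.12 and 13.44 in the 4 groups. Male fish 11, 66 and 52 stood apart in 10 genes of the intestinal epithelium, with list means of 8.34, 8.29 and 8.92 against at most 4.98 in every other fish. The mean of 12 exocrine pancreas genes varied among the fish of every group. It ran from 7.11 to 9.83 in females on 0% and from 8.18 to 11.68 in females on 25%. In males it ran from 8.01 to 12.45 on 0% and from 6.67 to 10.60 on 25%. The table holds no detection calls, so a value near or below its array's median may be background, and the size of a difference that starts from it is uncertain. Differences below are on the log2 scale with their standard error from limma, and adjusted p-values are Benjamini-Hochberg values over all 15502 probe sets, with a threshold of 0.05.

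Egg coat signal rose with dietary carbohydrate in females. The 4 genes were chosen with earlier results of these data known. Their counts and p-values, here and below, are thus descriptions and no independent test. All 5 probe sets were called higher on 25% than on 0%, against 1.9% of all probe sets called higher in this comparison. Their differences ran from 2.66 to 3.74, or 6.30-fold to 13.4-fold, while the median over all probe sets was -0.03. For zp3a.1 and for zp3.1 probe set B, which had the largest fold, signal on 0% was not above the array's median in every female. The sizes of those differences are thus uncertain. In every one of the 5 the lowest female on 25% lay above the highest female on 0%, which held for 2.75% of all probe sets. The exact permutation test of the fish labels gave p = 0.00794 for each, unadjusted, the smallest value that 5 fish against 5 allow. These are bulk liver samples, so more cells of a type and more RNA per cell cannot be told apart. Signal of 15 of 25 oocyte genes rose in the same comparison (given in full below), and their part in the egg coat result was not tested.

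Zp2.6, a gene of the ZP2 type (Entrez gene 114440), had signals of 5.20, 8.19, 4.95, 7.54 and 5.18 in female fish 7, 8, 10, 25 and 27 on 0%. On 25% the values were 9.11, 8.90, 9.75, 9.60 and 9.97 in female fish 3, 20, 24, 49 and 51. All 5 females on 25% lay above all 5 on 0%, and the females on 0% fell into 2 high fish and 3 low ones. In males zp2.6 read 4.44, 4.03, 5.85 and 4.51 on 0% (fish 11, 26, 30 and 66) and 3.95, 4.10 and 4.88 on 25% (fish 52, 53 and 54). Every fish was above its array's median, and male fish 30 lay above the 3 low females on 0%. The female group means were 6.21 ± 1.53 on 0% and 9.46 ± 0.45 on 25% (SD, n = 5 each). The diet difference was 3.25 ± 0.58, or 9.52-fold (limma adjusted p = 0.00404), higher in 5 of 5 fish on 25% than in any fish on 0%.

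Zp3a.1, a gene of the ZP3 type (Entrez gene 407714), read 3.42, 5.31, 3.05, 4.63 and 3.42 in female fish 7, 8, 10, 25 and 27 on 0%. On 25% the values in fish 3, 20, 24, 49 and 51 were 6.98, 6.68, 7.57, 6.69 and 7.11. Of the females on 0% only fish 8 and 25 were above their array's median, while all 5 on 25% were. Males read 2.88, 2.90, 3.15 and 2.87 on 0% (fish 11, 26, 30 and 66) and 2.92, 3.09 and 2.87 on 25% (fish 52, 53 and 54), all 7 below the array's median. The difference between the female diets was 3.04 ± 0.34, or 8.23-fold (limma adjusted p = 0.000112). The gap between the lowest female on 25% and the highest on 0% was 1.38, the widest of the 5 probe sets.

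Zp3.1 is another gene of the ZP3 type, and its 2 probe sets need not measure the same transcripts. Probe set A is annotated to Entrez gene 100148225. Probe set B is annotated to Entrez gene 100007710, an ID with no entry in the RefSeq gene table used here. The manufacturer's suffix on B (x_at) marks a probe set whose probes may also bind other transcripts. Probe set A read 4.61, 6.98, 4.65, 6.31 and 4.79 in female fish 7, 8, 10, 25 and 27 on 0%, and 7.93, 7.40, 8.45, 8.12 and 8.72 in fish 3, 20, 24, 49 and 51 on 25%. In males it read 4.37, 4.70, 5.11 and 4.57 on 0% and 3.98, 4.22 and 4.48 on 25%. Every fish was above its array's median for A, and the gap between the female diets, 0.43, was the narrowest of the 5 probe sets. The difference was 2.66 ± 0.41, or 6.30-fold (limma adjusted p = 0.0012).

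Probe set B of zp3.1 read 3.91, 7.53, 3.41, 5.97 and 3.75 in the same order of females on 0%, and 8.17, 8.29, 8.93, 8.74 and 9.16 on 25%. Its spread among females on 0%, with an SD of 1.78, was the widest of the 5 probe sets. Males read 3.00, 3.23, 4.06 and 3.24 on 0% and 2.95, 3.03 and 3.27 on 25%, and only male fish 30 was above its array's median. The female diet difference was 3.74 ± 0.61, or 13.4-fold (limma adjusted p = 0.00195). Female fish 10, on 0%, lay below its array's median (3.41 against 3.56), and fish 27 was near its own (3.75 against 3.59). The size of this difference is thus uncertain. Of all 15502 probe sets ranked by this difference, B stood at rank 11 and A at rank 52.

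Zpax1, of the ZPAX type (Entrez gene 334036), read 4.07, 6.12, 3.67, 5.70 and 3.82 in female fish 7, 8, 10, 25 and 27 on 0%. On 25% fish 3, 20, 24, 49 and 51 read 7.38, 7.09, 7.89, 7.76 and 8.25. Again fish 8 and 25 were the high females on 0%, and both stayed below every female on 25%. Males read 3.36, 3.82, 3.82 and 3.90 on 0% and 3.70, 3.92 and 3.89 on 25%, with only male fish 11 below its array's median. The female diet difference was 3.00 ± 0.41, with a 95% confidence interval of 2.13 to 3.87 (limma adjusted p = 0.000413).

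**Figure D1:**
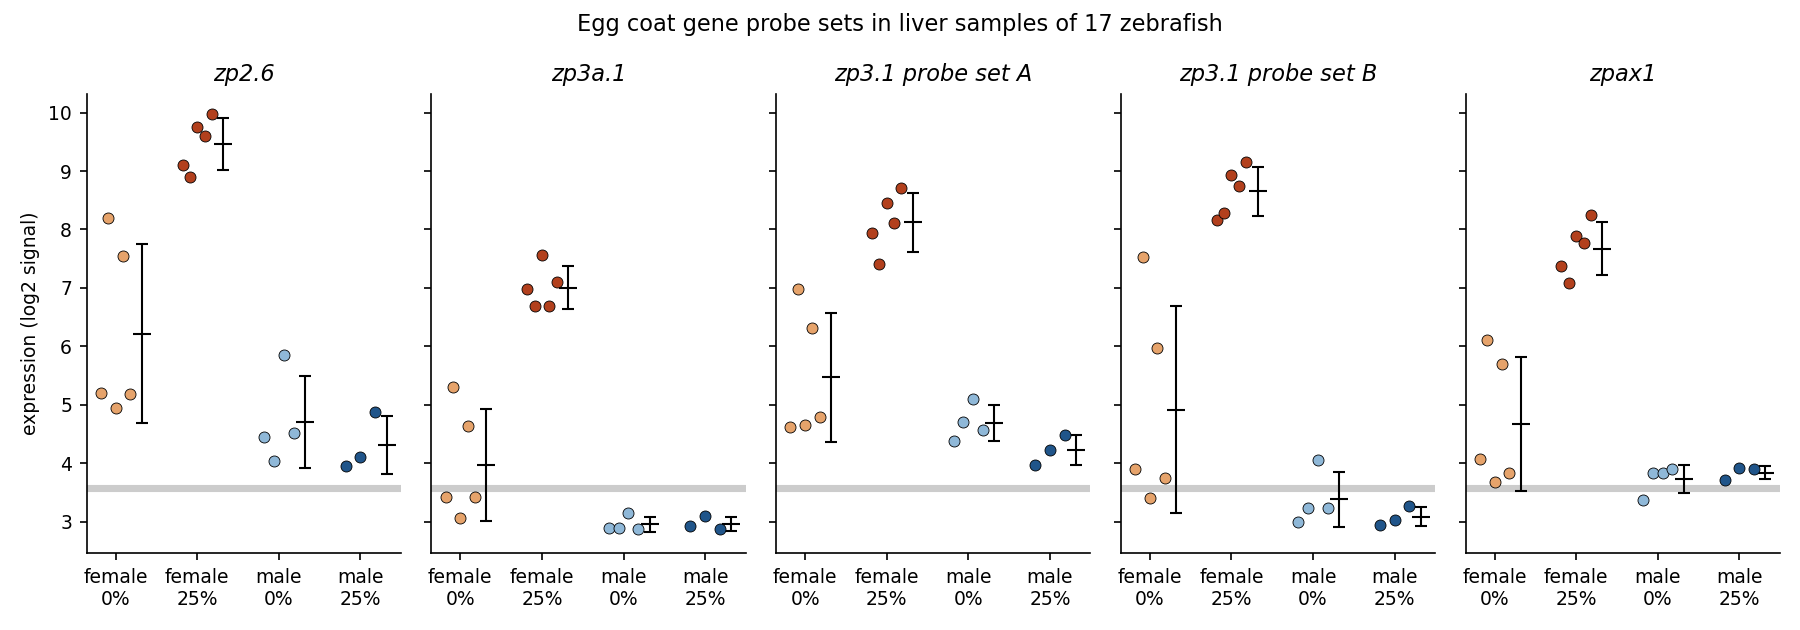
Log2 signal of the 5 egg coat probe sets in each of the 17 fish, by sex and dietary carbohydrate. Points are fish, the bars beside them are mean ± SD, and the grey band spans the medians of all arrays (3.52 to 3.61). The 5 females on 25% lie above every other fish in each panel, and 2 of the 5 females on 0% lie apart from the other 3.

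The females on 0% did not form a uniform group. Fish 8 was the highest and fish 25 the next in all 5 egg coat probe sets. The step from fish 25 down to the fish after it was 2.34 for zp2.6 and 1.22 for zp3a.1. For zp3.1 probe sets A and B it was 1.52 and 2.07, and for zpax1 1.635. The same pair was on top in 15 of 19 other zona pellucida probe sets, in 12 of 25 oocyte genes and in 8.01% of all probe sets. Of those 19 probe sets 7 carry several gene symbols. Most of the 7 name zp2.6 or zp3.1 among them, so they may partly measure the members again. The mean of the oocyte list was 4.13 in fish 8 and 3.88 in fish 25, against 3.54 to 3.62 in the other 3 females on 0%. Across the 10 females the deviations of the members from their group means ran together, with Pearson's r between 0.928 and 0.992 over the 10 pairs of probe sets. In the 7 males r ran from 0.245 to 0.924. These are descriptions over fish that share an RNA sample and an array for all members, and among the females on 0% fish 8 and 25 hold the high values.

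**Figure D2:**
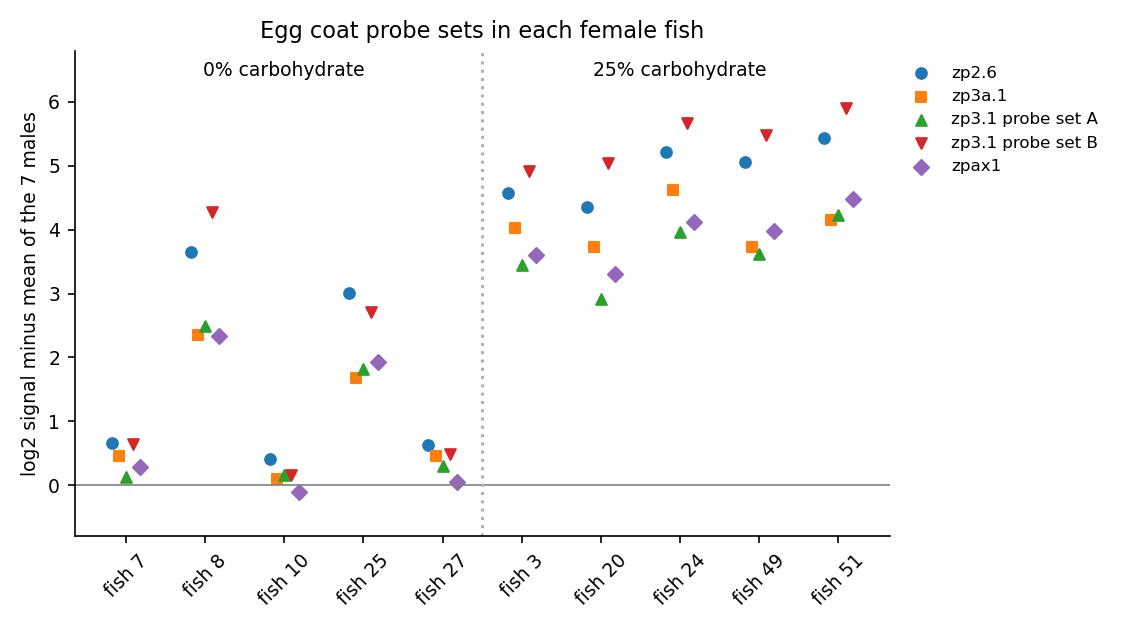
Log2 signal of the 5 egg coat probe sets in each of the 10 females, minus that probe set's mean over the 7 males (horizontal line at 0). On 0% fish 8 and 25 stand above fish 7, 10 and 27 for every probe set, and all 5 fish on 25% stand higher still.

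In males no egg coat probe set differed between the diets past the test. Of the 5, 0 passed limma's adjusted threshold and 0 had an unadjusted p under 0.05, against 0.116% and 8.18% of all probe sets. The differences (25% minus 0%) ran from -0.46 for zp3.1 probe set A to 0.11 for zpax1, with adjusted p-values of 0.895 to 0.999. Their 95% confidence intervals were -1.88 to 1.09 for zp2.6, -0.86 to 0.88 for zp3a.1, -1.51 to 0.60 and -1.87 to 1.27 for zp3.1 probe sets A and B, and -0.94 to 1.16 for zpax1. The exact permutation p-values lay between 0.114 and 0.914, where 4 against 3 fish can give no less than 0.0286. The intervals for zp2.6 and zp3.1 probe set B reach beyond a 2-fold change in either direction, and the zp3a.1 values in males lay below the array medians throughout. Limma took 1 spread per probe set from all 4 groups, so these intervals also carry the spread among females. The standard errors for diet in females and for sex on 0% in turn carry the smaller spread of the other groups. Females on 0% had the largest SD of the 4 groups for every egg coat probe set. For zp2.6 the SD was 1.53 in females on 0%, against 0.79 in males on 0% and 0.50 in males on 25%. For probe set B it was 1.78, against 0.47 and 0.165. Male fish 30, on 0%, was the highest male in 4 of the 5 probe sets.

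The interaction asked whether the diet difference was larger in females than in males. It was called for 2 of 5 probe sets, against 0.69% of all probe sets called in that direction: zp3a.1 at 3.03 ± 0.53 (limma adjusted p = 0.0148) and zp3.1 probe set A at 3.11 ± 0.64 (limma adjusted p = 0.0362). Zpax1 stood at 2.89 ± 0.64 (limma adjusted p = 0.0537), zp3.1 probe set B at 4.04 ± 0.96 (0.0829) and zp2.6 at 3.65 ± 0.91 (0.108). All 5 had an unadjusted p under 0.05, as did 5.99% of all probe sets. Without male fish 11, 52 and 66, which leaves 2 fish in each male group, 0 of 5 passed the adjusted threshold, with limma adjusted p = 0.166 for zp3a.1 and 0.235 for zp3.1 probe set A at differences of 3.09 and 3.2. Zp3a.1 also lost its call without male fish 54 (limma adjusted p = 0.0525), and probe set A lost its call in 14 of 17 repeats that left out a single fish. Without female fish 8 all 5 passed. Fish 8 was the highest female on 0% for each, so leaving it out by itself widens the female diet difference. Over the 17 repeats the interaction had 43 to 163 calls among all probe sets.

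On 0% carbohydrate the sexes were not separated by any egg coat probe set past the test. Females stood higher by 1.5 ± 0.61 for zp2.6, 1.01 ± 0.36 for zp3a.1, 0.78 ± 0.43 and 1.53 ± 0.65 for zp3.1 probe sets A and B, and 0.95 ± 0.43 for zpax1. With limma 0 of 5 passed (adjusted p = 0.141 to 0.343), against 2.27% of all probe sets called higher in females. Without adjustment 4 of 5 had a limma p under 0.05, against 18.8% of all probe sets. The exact permutation p-values, unadjusted, were higher. They lay between 0.0556 for zp3a.1 and 0.31 for zp3.1 probe set A, where 5 against 4 fish can give no less than 0.00794. Female and male values overlapped for each: the number of females on 0% above the highest of all 7 males was 2 for zp2.6, 4 for zp3a.1, 2 for each zp3.1 probe set and 3 for zpax1. Without female fish 8 the differences were 1.01 for zp2.6, 0.68 for zp3a.1, 0.41 and 0.88 for zp3.1 probe sets A and B, and 0.59 for zpax1.

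On 25% carbohydrate all 5 probe sets were higher in females, against 3.55% of all probe sets called higher. Zp2.6 differed by 5.15 ± 0.67, or 35.6-fold (limma adjusted p = 0.000143), with 9.46 ± 0.45 in 5 females and 4.31 ± 0.50 in 3 males (SD). Zp3.1 probe set B differed by 5.57 ± 0.70 and probe set A by 3.90 ± 0.47. Zp3a.1 differed by 4.05 ± 0.39 (limma adjusted p = 1.46e-05) and zpax1 by 3.84 ± 0.47. All 5 females lay above all 3 males for each probe set, as for 6.95% of all probe sets, and the exact permutation p was 0.0179 for each, unadjusted, the smallest possible for 5 against 3. Since the males lay below the array's median for zp3a.1 and for probe set B, those 2 sizes are not exact.

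**Figure D3:**
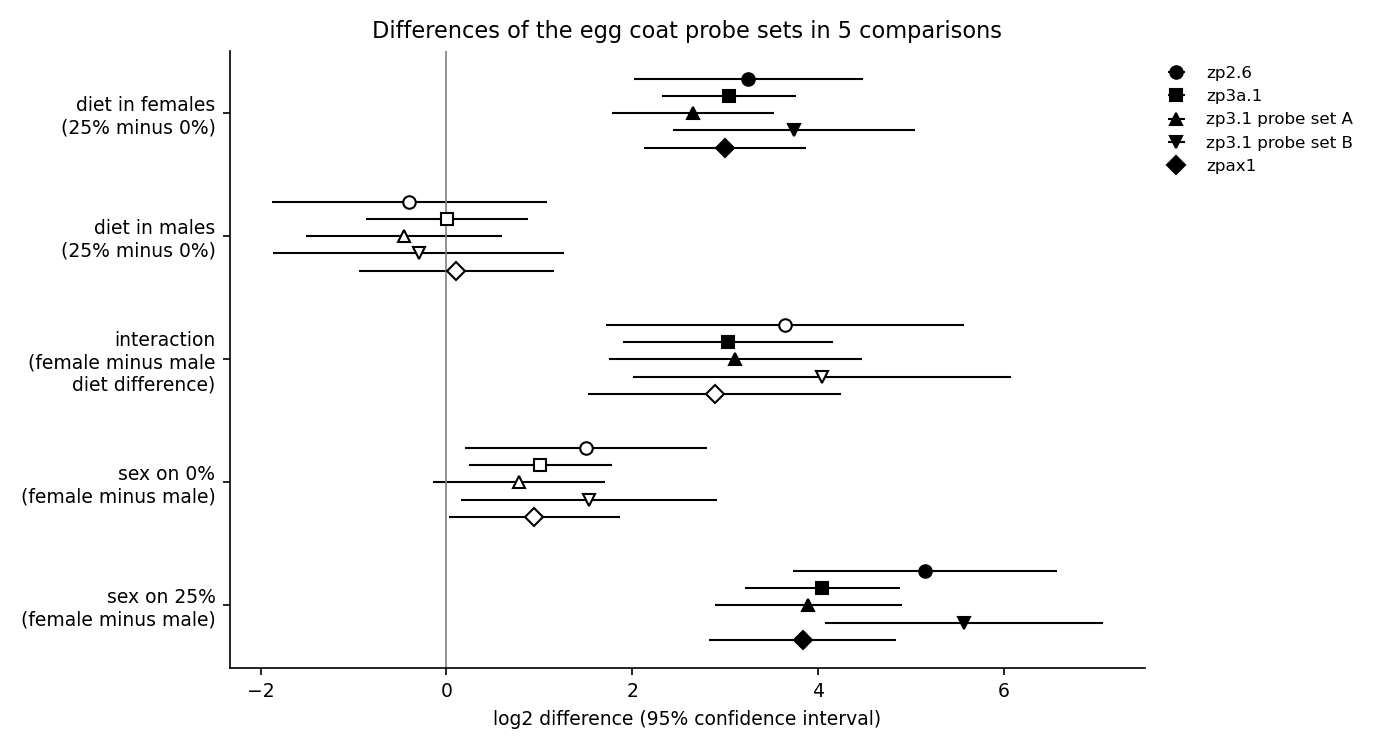
Log2 differences of the 5 egg coat probe sets in the 5 comparisons, with 95% confidence intervals from limma. Filled symbols passed the adjusted threshold of 0.05. All 5 passed for diet in females and for sex on 25%, and 2 passed for the interaction. None passed for diet in males or sex on 0%, where 0 and 4 of the 5 had an unadjusted limma p under 0.05. For sex on 0% the exact permutation p-values lay between 0.0556 and 0.31.

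The members were also compared with each other for the size of the female diet difference, using the brighter probe set A for zp3.1 and the difference between 2 genes within each fish. Over the 6 pairs, 0 passed after adjustment by Benjamini and Hochberg, and 2 had an unadjusted exact permutation p under 0.05. The difference of zp2.6 exceeded that of zp3.1 by 0.60 (95% confidence interval 0.11 to 1.08, exact permutation p = 0.0318, adjusted 0.0952), and that of zp3.1 minus that of zpax1 was -0.34 (-0.58 to -0.11, exact permutation p = 0.0238, adjusted 0.0952). The closest pair was zp3a.1 and zpax1, at 0.04 (-0.45 to 0.53). With the mean of both zp3.1 probe sets in place of A, the excess of zp2.6 over zp3.1 fell to 0.05 (adjusted exact permutation p = 0.743). The difference between zp3.1 and zpax1 turned to 0.20, so both results depend on the probe set.

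In the gene order of the RefSeq assembly GRCz12tu, zp2.6 lies beside zp2.1, with zp2.5 after it, and on its other side 1 gene separates it from zp2.3 and zp2.2. Zp3a.1 lies beside zp3a.2, and zp3.1 lies beside zp3 with zp3.2 next in line. Zpax1 has mixl1 and ttc32 as neighbours and no zona pellucida gene next to it. The array's annotation gives several symbols to 7 further zona pellucida probe sets. Of these, 6 name genes of the zp2.6 or zp3.1 neighbourhood together, so signal may be shared between probe sets there, and 1 names zp3e with prpf8. Of the 7 probe sets 6 rose with diet in females, against 1.9% of all probe sets, with a median difference of 3.16 over the 7. The exception, named for zp2.1, zp2.6 and zp2.5 together, stood at 1.76 ± 0.47 (limma adjusted p = 0.0771).

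Beyond the 4 genes, 12 further zona pellucida genes had a probe set of their own. Of these 8 rose with carbohydrate in females while 0 fell, against 1.9% of all probe sets called higher. Their median difference was 1.26. Zpax4, of the ZPAX type like zpax1, rose by 2.88 ± 0.37, and zp3a.2, the neighbour of zp3a.1, by 2.84 ± 0.31. Of the other ZP3-type genes, zp3f.1 rose by 2.48 ± 0.33, zp3b by 2.05 ± 0.28 and zp3c by 1.32 ± 0.13. Zp2l1 rose by 1.71 ± 0.26, while zp3f.2 rose by 0.47 ± 0.11 and zp3d.1 by 0.25 ± 0.06. On 0% the signal lay below the array's median in all 5 females for zp3c, zp3f.2 and zp3d.1, and in 3 of 5 for zpax4, zp3a.2 and zp2l1, so the sizes of these differences are uncertain. Zp3d.1 stayed below it in all 5 females on 25%. Those that did not pass were zpcx at 1.21 ± 0.30 (limma adjusted p = 0.0548), zp3d.2 at 0.37 ± 0.12 (0.192), zp2l2 at 0.35 ± 0.11 (0.187) and zpd at 0.18 ± 0.15 (0.681). Zpd lay below the array's median in all 5 females on 0% and in 4 of 5 on 25%.

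With limma these 12 genes gave 0 calls for diet in males and 0 had an unadjusted p under 0.05, against 0.116% and 8.18% of all probe sets. For sex on 0% 0 were called, against 2.27% of all probe sets called higher in females. There 2 of the 12 had an unadjusted p under 0.05, near the 18.8% of all probe sets. The interaction was called for 5, which were zp3f.1, zp3c, zp3b, zp3a.2 and zpax4, against 0.69% of all probe sets. On 25% the females were higher for 10 of 12, against 3.55% of all probe sets called higher. The exceptions were zpd at 0.41 ± 0.18 (limma adjusted p = 0.232) and zp3d.1 at 0.16 ± 0.07 (0.201).

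Genes that mark other cell types were read in the same samples. Their lists were written with earlier results of these data known, so the counts are descriptions and no independent test. Of 36 listed oocyte genes 25 were measured. With carbohydrate in females 15 rose and 0 fell, against 1.9% of all probe sets called higher, with a median difference of 0.78. Cldnd, a claudin of the zebrafish egg, rose by 2.83 ± 0.38, h1m, the linker histone of the oocyte and early embryo, by 2.6 ± 0.34, and btg4, which acts in the clearance of maternal RNA, by 2.52 ± 0.32. The list's mean per fish lay between 3.54 and 4.13 in females on 0%, 4.57 and 5.13 in females on 25%, 3.26 and 3.47 in males on 0%, and 3.21 and 3.50 in males on 25%. The 5 females on 25% lay above every other fish. Of the 25 genes 9 were below the array's median in every female on 0%, so the sizes of differences that start there are uncertain. On 25% 7 were below it in every female, which were bmp15, ddx4, piwil1, sycp1, sycp3, tdrd5 and tdrd7a. Of these tdrd7a was among the 15 that rose, by 0.45 ± 0.06, and ddx4, a germ cell helicase gene, was called for sex on 25% at 0.32 ± 0.07 (limma adjusted p = 0.0133). In the interaction 8 of the 25 were called higher, against 0.69% of all probe sets, and for sex on 25% 17 were, against 3.55%. For sex on 0% 1 was called, npm2b at 0.66 ± 0.15 (limma adjusted p = 0.0262), against 2.27% of all probe sets called higher. On 0% 11 of the 25 had an unadjusted p under 0.05, against 18.8% of all probe sets.

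Genes of the follicle cells and other somatic cells of the ovary gave no call for diet in females. Of 20 listed 12 were measured, and with limma 0 passed for diet in females (2 at an unadjusted p under 0.05), with a median of -0.08. Over all 15502 probe sets 325 passed in either direction and 1979 had an unadjusted p under 0.05. With calls that rare, 0 among 12 genes, or among the 10 testis genes below, does not set a list apart. Of these 12 genes 8 lay below the array's median in every female on 0% and 8 in every female on 25%, with cyp19a1a and fshr below it in all 10 females. The 2 genes with an unadjusted p under 0.05 ran in opposite directions. Cyp17a1, a steroid hydroxylase gene, stood at 0.55 ± 0.17 (limma adjusted p = 0.133) and the signalling gene wnt4 at -0.26 ± 0.09 (0.199). Cyp17a1 was also the 1 of 12 called for sex on 25%, at 0.73 ± 0.19 (limma adjusted p = 0.0384), against 3.55% of all probe sets called higher. All 10 females lay above all 7 males for it, but narrowly, with the lowest female at 2.594 and the highest male at 2.579. The share of all probe sets with such a separation was not counted. Cyp17a1 signal was below the array's median in all 5 females on 0%, in 4 of 5 on 25% and in all 7 males. These values may thus be background, and the size of the difference is uncertain. Cyp19a1a, the ovarian aromatase, stood at -0.04 ± 0.09 for diet in females (limma adjusted p = 0.918), and fshr, the receptor for follicle stimulating hormone, at -0.13 ± 0.08 (0.51). The list's mean lay between 3.16 and 3.52 in females on 0% and between 3.12 and 3.29 in those on 25%. Of the 10 measured testis and germ cell genes 0 passed for diet in females, and 0 had an unadjusted p under 0.05.

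The oestrogen response of the liver was read from 6 of 10 listed genes. With limma 0 of the 6 passed for diet in females (1 at an unadjusted p under 0.05), and the median difference was -0.21. Esr1, the oestrogen receptor gene, stood at -0.52 ± 0.18 (limma adjusted p = 0.204), the yolk precursor gene vtg2 at -0.19 ± 0.65 (0.948), and nots, the gene of a female liver protease, at -0.02 ± 0.25 (0.985). All 6 were higher in females than in males on either diet, against 2.27% of all probe sets called higher on 0% and 3.55% on 25%. On 0% the 6 oestrogen response genes thus passed for sex and the 5 egg coat probe sets did not, a contrast whose difference was not itself tested. A call also depends on the spread. Hdlbpa, the smallest of the 6 differences on 0%, passed at 0.97 ± 0.17, while zp2.6 stood at 1.5 ± 0.61 and did not. None of the 14 hepatocyte genes passed for diet in females with limma (2 at an unadjusted p under 0.05), and their median was 0.04. Of 12 exocrine pancreas genes 0 passed (0 at an unadjusted p under 0.05) with a median of 1.43, and of 10 intestinal genes 0 passed (0 at an unadjusted p under 0.05) with a median of 0.03. As 325 of 15502 probe sets were called for diet in females, 0 calls do not set any of these short lists apart.

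**Figure D4:**
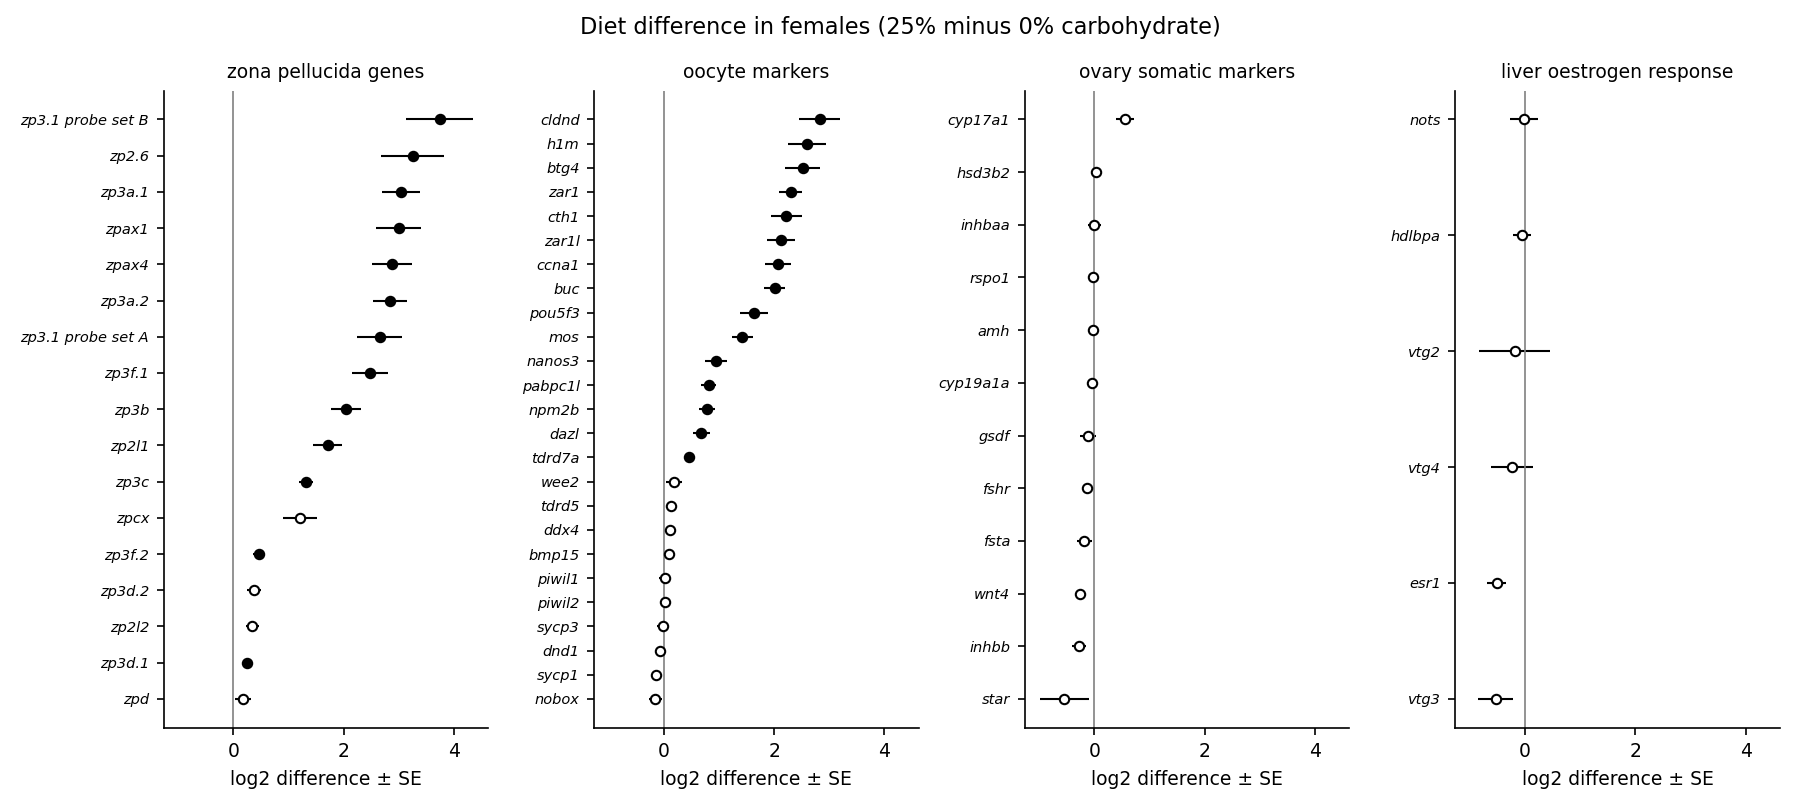
Log2 difference between females on 25% and on 0% carbohydrate, with its standard error, for zona pellucida genes with a probe set of their own, oocyte genes, somatic ovary genes and oestrogen response genes of the liver. Filled points passed the adjusted threshold of 0.05. Filled points appear for the members, for 8 of the 12 further zona pellucida genes and for 15 of the 25 oocyte genes, and there are none in the other 2 panels.

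The genes whose signal ran closest to the members were sought among 8789 other named genes, by Pearson's r over the 17 arrays. For zp3a.1 the closest was its neighbour zp3a.2 (r = 0.994), followed by zgc:153499 and a gene known only by a clone name (both 0.992). For zpax1 they were zgc:173770 (0.996), rrm2l (0.995) and zpax4 (0.994). For zp2.6 they were zgc:171474 (0.985), si:ch211-12h2.8 (0.983) and siva1 (0.98), and for zp3.1 they were si:ch211-12h2.8 (0.993), zgc:173837 (0.992) and a2m3g (0.991). With the group means removed, the highest mean r with the 4 genes was that of si:ch211-12h2.8 (0.945), then zgc:171474 (0.93), mpv17 (0.928), zpax4 (0.925) and si:dkey-229d11.5 (0.913). All of these points share the same arrays, and the females on 25% stand apart in the first measure. In the second measure the members' spread was widest among females on 0%, where fish 8 and 25 hold the high values.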

How the data were processed

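Total liver RNA of 17 zebrafish was hybridised to 1 array each. The authors' deposited values were taken as log2 signals per probe set, already normalized between arrays, and the log base was inferred from their range (1.82 to 14.4). Per the submitters' processing notes MAS5, RMA, GCRMA and PLIER were used, without a statement of which made the table. The values were used as deposited, since the array medians differed by no more than 0.09 (a limit of 0.2 was set for renormalizing).

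The table holds 15617 probe sets, and 15502 were tested after removal of 115 controls. In the platform annotation 10795 of them had 1 symbol, 135 several and 4572 none, and 10711 were matched by Entrez ID to the RefSeq gene table. No sequences are shown.

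Limma 3.58.1 in R 4.3.3 (lmFit and eBayes) fitted the 4 group means over all 17 arrays, with Benjamini-Hochberg adjustment over all probe sets. Groups follow the labels of the single fish, which the design text calls biological replicates. Fish numbers differ between groups and pair nothing. The number of arrays limits the precision. Exact two-sided permutation tests compared fish labels for single probe sets, an alternative added after seeing the data, and gene pairs (252 splits of 5 against 5). The named genes were the members, every other zona pellucida gene with its own probe set, up to 3 called genes of each marker list with the largest female diet difference, esr1, vtg2 and nots, and the genes nearest to the members by correlation. Outside this rule some genes were named after their values were seen. They were fabp10a, ddx4, npm2b, cyp19a1a, fshr, cyp17a1, wnt4, hdlbpa, nobox, dnd1, piwil2, wee2 and the oocyte genes below the array medians. Each listed gene was read from its brightest probe set. Members and lists were chosen with earlier results of these data known. Alternatives were array weights, quantile normalization, median centring, trended robust eBayes, gene means, only the brighter probe sets, a fit of only the groups compared, omission of male fish 11, 52 and 66, and omission of single fish. The script was checked on simulated data.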

Additional observations from a re-analysis of the deposited data

Results flagged for a closer look

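Male fish 30, on 0% carbohydrate, had a zp3a.1 signal of 3.15, above the other 3 males of its group at 2.87 to 2.90. The gap was 0.918 of the group's range, but that range was narrow and all 4 males lay below their array's median. Male fish 11, also on 0%, had a zpax1 signal of 3.36, below the other 3 males of its group at 3.82 to 3.90 (a gap of 0.851 of the range). Dixon's test was applied to 15 combinations of probe set and group, and chance marks about 1 in 20. The diet differences of females and males differed by 3.03 for zp3a.1 (limma adjusted p = 0.0148) and by 3.11 for zp3.1 probe set A (limma adjusted p = 0.0362) by the interaction term.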

How the results depend on the processing

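Without male fish 11, 52 and 66 the interaction was called for 0 of 5 members, with array weights for 1, under quantile normalization for 1 and among the brighter probe sets for 4, against 2 of 5 as reported. Over all probe sets the interaction had 108 calls, 64 with array weights and 15 without those 3 males. It also had 108 calls among the 7751 brighter probe sets, against the 15502 tested in the main fit. Those probe sets were chosen by signal over all arrays, females on 25% included. Zp3a.1 was kept although it lay below the array's median in every male. The choice was thus not blind to the groups, and the 4 members called there are no independent check. Diet in males had 18 calls, 40 with array weights, 28 without those males and 0 by limma with only the groups compared (971 at an unadjusted p under 0.05). Sex on 0% had 516 calls, 337 with only the groups compared and 304 without those males, which were 133 higher and 171 lower in place of 352 and 164. Sex on 25% had 761 calls and 394 with only the groups compared. Without those males its split was 412 higher and 356 lower in place of 550 and 211. Leaving out 1 fish in turn gave 0 to 5 members and 43 to 163 probe sets for the interaction, 1 to 52 probe sets for diet in males, 275 to 593 for sex on 0%, and 0 to 1 differing pairs of members. The 5 interaction calls came without female fish 8, the highest female on 0% for every member. The 1 pair, zp3.1 and zpax1, passed without female fish 7 (adjusted exact permutation p = 0.0476). The difference of zp3a.1 between male diets was -0.045 without male fish 11, 52 and 66 and -0.058 to 0.076 without 1 fish, that of zpax1 -0.013 to 0.176, zp2.6 -0.684 to -0.019, and zp3.1 probe sets A and B -0.585 to -0.318 and -0.426 to -0.071. With probe sets averaged per gene, zp3a.1 minus zp3.1 turned to -0.16 and zp3.1 minus zpax1 to 0.20, while zp2.6 minus zp3.1 fell to 0.05. Zp3a.1 minus zpax1 ran from -0.048 to 0.159 without 1 fish. Each cause was not tested. Members' calls for diet in females and sex on 25% held under every alternative run, with adjusted p of at most 0.0284 for diet in females, and no member was called for diet in males or sex on 0%. No paired analysis was possible because fish numbers differ between groups. Male values near or below the array medians limit how exactly the differences on 25% can be sized.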
